A study of Macaca mulatta with 22 samples.

Results

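PLXNA1, PLXNA2, PLXNA4, PLXNB1, EPHB2, EPHA4 and DSCAM are 7 genes for axon guidance receptors. They were chosen by where their m6A peaks lay, mainly in the lists of sevoflurane animals, so the difference between the groups described for them is a property of that choice and carries no test. Each matched 1 macaque Ensembl gene, and 6 of the 7 had a peak in at least 1 animal, among 3671 genes with a peak in all. EPHA4 (ENSMMUG00000012364) had none in any of the 11 lists.

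The data are lists of m6A peaks, stretches of RNA enriched by an antibody against N6-methyladenosine, from prefrontal cortex of rhesus macaque infants (Macaca mulatta) at postnatal day 35. The 6 control animals were the males A and B and the females C, C1, C2 and C3. The 5 sevoflurane animals, the males D and S1 and the females F, S2 and S3, had breathed the anaesthetic at about 2.5 to 3% in sessions of 4 h near postnatal days 7, 21 and 35. How control animals were handled on those days is not given in the sources used here. The 11 input libraries were not analysed here. No RNA level therefore stands beside a peak, and a gene without a listed peak is not thereby shown to lack m6A. The tissue is bulk cortex, in which fewer cells of a type and less RNA per cell cannot be told apart.

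Plexins and Eph receptors are transmembrane receptors of growth cones and synapses. Plexin-A proteins, with neuropilins as co-receptors, bind secreted class 3 semaphorins and also bind some transmembrane semaphorins, and plexin-B1 is the receptor of SEMA4D. Eph receptor tyrosine kinases bind ephrins on neighbouring cells: EphB2 binds ephrin-B ligands and also associates with NMDA receptors at synapses, while EphA4 binds ephrins of the A and B classes. DSCAM is an adhesion molecule of the immunoglobulin superfamily that acts in self-avoidance of neurites and as a netrin receptor. m6A, the mark mapped here, is written on mRNA in the nucleus and is known to lie often near stop codons and in 3' UTRs.

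The 6 genes had 16 peaks, at most 1 per gene and animal. Of these, 15 were in sevoflurane lists, which held 6085 peaks, and 1 was in a control list, of 3984 peaks in all control lists. Among control animals, A had 1 of the 7 genes with a peak and B, C, C1, C2 and C3 had 0. Among sevoflurane animals, D had 1, F 3, S1 4, S2 3 and S3 4. The mean number per animal was 0.167 ± 0.408 among controls (SD, n = 6). Among sevoflurane animals it was 3.0 ± 1.22 (SD, n = 5). The groups overlapped at A and D, each with PLXNA1 alone.

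**Figure D1:**
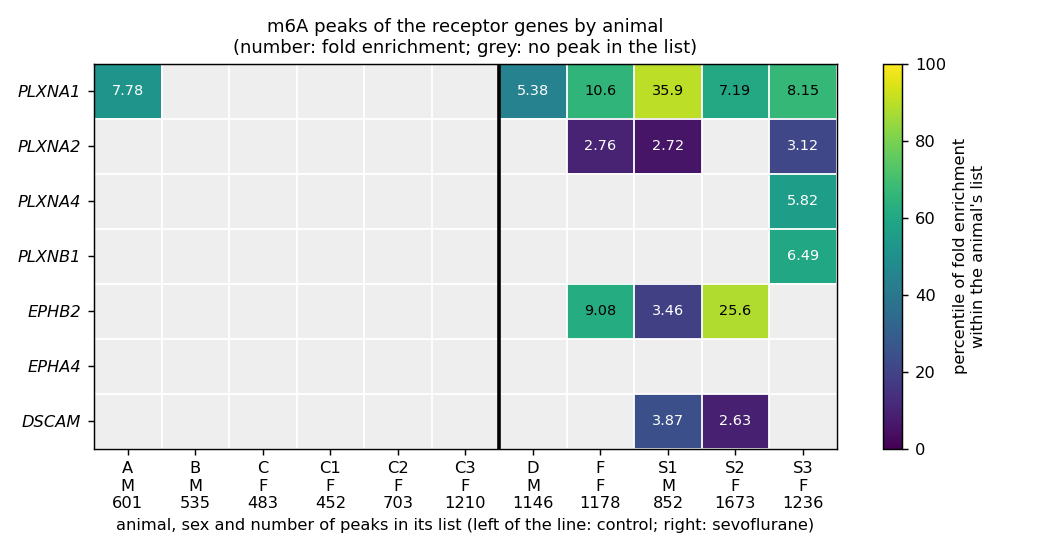
Peaks of the 7 genes (rows) in the 11 animals (columns, with sex and the number of peaks in the list). The number in a cell is the authors' fold enrichment, the colour its percentile within that animal's list, and grey means that the list holds no peak. PLXNA1 fills all 5 sevoflurane columns and 1 control column, A, and the EPHA4 row is empty.

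Lists were longer after sevoflurane, and their length stands beside each count of genes. They held 452 to 1210 peaks in controls and 852 to 1673 after sevoflurane, a log2 difference of 0.93 (two-sided exact permutation test, p = 0.0152). The read depth behind a list is unknown. The control C3, with 1210 peaks, had none of the 7 genes, whereas S3, with 1236, had 4, F, with 1178, had 3, and D, with 1146, had 1. S1 had the shortest sevoflurane list, 852 peaks, and 4 of the genes, against 3 in S2, which had the longest, 1673. Since the genes were chosen for having few peaks in controls, the 0 of C3 was set by that choice and says nothing about the part of list length. Of the genes with a peak in an animal, the 7 made up 0.0299 ± 0.0732% among controls (SD, n = 6). Among sevoflurane animals they made up 0.304 ± 0.165% (SD, n = 5), from 0.101% in D to 0.545% in S1. The groups crossed on this measure, with control A at 0.179%, above D. With every list cut to the 452 peaks of lowest p-value, the mean number per animal was 0.167 in controls and 0.60 after sevoflurane, a difference of 0.433 in place of 2.83.

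**Figure D2:**
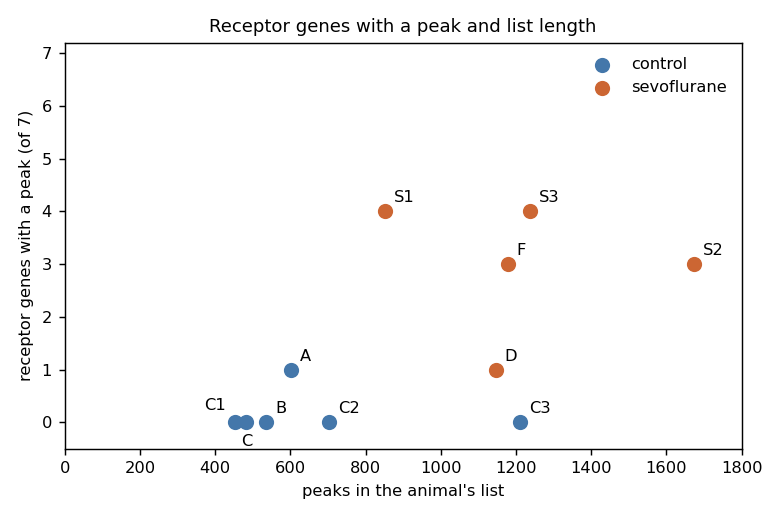
Number of the 7 receptor genes with a peak (vertical axis) against the number of peaks in the animal's list (horizontal axis), 1 point per animal. C3, a control with 1210 peaks, sits at 0, near sevoflurane animals with 1146 to 1236 peaks that have 1 to 4. The 0 of C3 was set by the choice of genes with few peaks in controls.

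The background over all genes leans the same way. Of the 3671 genes with a peak, 70.1% were found in a larger share of sevoflurane than of control animals, beside 6 of the 6 receptor genes with a peak. A peak in sevoflurane animals and in no control was seen for 44.9% of the 3671, beside 5 of the 6. By Fisher's exact test over the 1486 genes present in 2 to 9 animals, 1.82% had an unadjusted p under 0.05 with peaks more often in sevoflurane animals, and 0 genes in the other direction. No call is given for the 4 receptor genes in that range. No gene passed the adjustment (Fisher's exact test, smallest adjusted p = 0.606). The rule that picked the receptors used this contrast, so nothing is read from their counts.

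PLXNA1 (ENSMMUG00000016720) encodes plexin-A1, a semaphorin receptor that works with neuropilins. It had a peak in A among the controls and in D, F, S1, S2 and S3. Of the 93 genes present in exactly 6 animals, 7.53% had at most 1 control among them, as PLXNA1 did. Its peaks all lay in the 3' UTR by the authors' annotation, on the plus strand of chromosome 2 (rheMac8 assembly, as for all positions here), where the annotated gene runs from 48102553 to 48152464. The authors' classes depended on strand over all genes: 25.5% of plus-strand and 13.4% of minus-strand peaks were in the 3' UTR class, and 18.6% and 5.05% in the 5' UTR class. Classes are therefore given beside the position in the gene, and the PLXNA1 peaks lay at 94.0 to 98.0% of its span. In 5 animals they formed a single region from 48149410 to 48149589. D and S2 had the whole of its 180 bases, F 150, S1 91 and A 90, and the stretch from 48149440 to 48149500, 61 bases, was common to all 5. The peaks of the 4 sevoflurane animals in it began at the same base, and that of control A began 30 bases further on. Peak edges in this region lay in steps of about 30 bases. A shared start, or a start 30 bases later, is therefore not resolved to the base. S3 had its peak elsewhere, from 48151416 to 48151536, 1826 bases beyond the end of that region and 928 bases before the annotated gene end. The gene was thus shared by all 5 sevoflurane animals, while the region was shared by 4 of them and by A.

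The fold enrichment of PLXNA1, as the authors' peak caller gave it, was 7.78 in A, 5.38 in D, 10.6 in F, 35.9 in S1, 7.19 in S2 and 8.15 in S3. The single control value lay within the range of the sevoflurane animals, and S1 stood far above the others. Within the list of each animal these values stood at percentiles of 51.8, 44.2, 65.4, 89.8, 60.5 and 66.5 in the same order of animals. The p-values ran from 2.1e-08 in S2 to 1.3e-05 in S1, so the peak with the highest fold enrichment had the weakest p-value of the 6. Ranked by p-value from the strongest, the PLXNA1 peak came 388th of 601 in A, 656th of 1146 in D, 543rd of 1178 in F, 561st of 852 in S1, 573rd of 1673 in S2 and 529th of 1236 in S3. All 5 sevoflurane peaks therefore lay beyond the first 452 places and were lost when lists were cut to that length, while that of A was kept. The direction then turned, to 1 of 6 controls and 0 of 5 sevoflurane animals. That cut went by place within each list, not by a common p-value. By the authors' peak caller, the kept peak of A had a p-value of 6.9e-06. The dropped peaks of D (3.1e-06), F (6.5e-07), S2 (2.1e-08) and S3 (2.6e-06) were stronger, and only that of S1 (1.3e-05) was weaker. At a p-value of at most 1e-05 per peak the counts were 1 of 6 and 4 of 5.

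**Figure D3:**
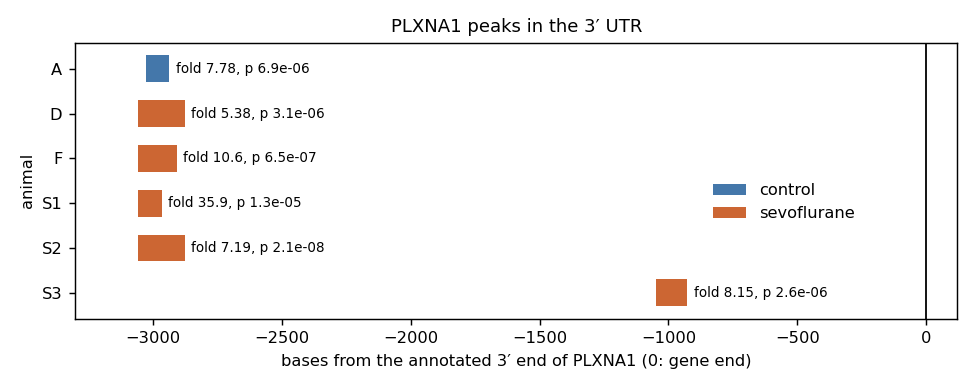
PLXNA1 peaks by animal, drawn to scale as bars along the bases before the annotated 3' end of the gene (0), with each peak's fold enrichment and p-value. The bars of A, D, F, S1 and S2 overlap in 1 region, and that of S3 lies 1826 bases nearer to the gene end.

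PLXNA2 (ENSMMUG00000004563), for plexin-A2, a receptor of class 3 semaphorins with neuropilins and of SEMA6A, had a peak in F, S1 and S3 and in no control. Among the 305 genes present in exactly 3 animals, 23.3% had no control among them. The 3 peaks lay apart in the gene, which spans 158339254 to 158556295 on the plus strand of chromosome 1. That of F, from 158339374 to 158339553, was in the 5' UTR, 120 bases after the annotated start. That of S3 joined 3 exonic blocks between 158440861 and 158484242, and that of S1 joined 2 between 158543926 and 158544764, at 94.5% of the gene span. No base was shared between animals. Enrichment was low and alike, at 2.76-fold in F, 2.72-fold in S1 and 3.12-fold in S3, or percentiles of 10.1, 5.69 and 21.2 within the lists. The p-values were nonetheless 2e-09, 1.3e-06 and 1.3e-05. In F the peak came 316th of 1178 and in S1 378th of 852, so PLXNA2 kept 2 sevoflurane animals and 0 controls in lists of equal length, the largest number among the 7 genes.

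PLXNA4 and PLXNB1 each had 1 peak, in S3. PLXNA4 (ENSMMUG00000005127), for plexin-A4, another semaphorin receptor, had it in 2 exonic blocks between 158290666 and 158298365 on the minus strand of chromosome 3. This peak lay at 97.9% of the span of the gene. It was enriched 5.82-fold (p = 3e-07, by the authors' peak caller) and came 382nd of 1236, within the equal-length cut. PLXNB1 (ENSMMUG00000003074) had its peak in 2 blocks between 94036039 and 94036492 on the plus strand of chromosome 2. The authors' class for it was 5' UTR, although its midpoint lay 49.4% of the way along the annotated gene. It was enriched 6.49-fold with a p-value of 2e-05, which does not meet the stricter threshold of 1e-05. Of the 2053 genes with a peak in a single animal, 63.2% had it in a sevoflurane animal. No other animal had a peak in either gene, so S3 alone accounts for PLXNA4 and PLXNB1.

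EPHB2 (ENSMMUG00000023382), the ephrin-B receptor, had a peak in F, S1 and S2 and in no control, the pattern in number that PLXNA2 had. Its peaks all lay late in the gene, in 3 places on chromosome 1 (plus strand) that did not overlap. F had an exonic peak from 21679991 to 21680081. S1 had one in the 3' UTR from 21687064 to 21687214, 6982 bases further on. S2 had one from 21689582 to 21689762, a further 2367 bases on and 90 bases before the annotated gene end. The order of enrichment was S2, F and S1. The values were 25.6-fold in S2, at the 88.2 percentile of its list, 9.08-fold in F, at 61.8, and 3.46-fold in S1, at 18.9. The p-values were 6.6e-06, 6.5e-07 and 3.9e-05. With their places by p-value at 980 of 1673, 543 of 1178 and 693 of 852, none was left in lists of equal length.

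DSCAM (ENSMMUG00000005174) had a peak in S1 and S2 and in no control. Of the 641 genes present in exactly 2 animals, 40.7% had no control among them. Both DSCAM peaks were weak. That of S1, from 6339186 to 6339276 on the plus strand of chromosome 3, lay at 3.61% of the gene span, with a 3.87-fold enrichment and a p-value of 0.00013. That of S2, in 2 blocks between 6667171 and 6674888, lay at 93.7%, with a 2.63-fold enrichment and a p-value of 0.00029. By p-value they came 814th of 852 and 1583rd of 1673, near the ends of their lists. Neither was left at a p-value of at most 1e-05.

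The 16 peaks shared few features across genes. They fell into 12 regions, of which the PLXNA1 region was the only one present in more than 1 animal. A midpoint beyond 80% of the gene span, introns included, was found for 12 of the 16, against 37.7% of 9549 peaks over all genes, but 6 of the 12 were PLXNA1 peaks. By gene, the median peak lay beyond 80% in 3 of 6 receptor genes and in 33.8% of 3510 genes. In all, 5 of the 6 had at least 1 peak there, PLXNB1 being the exception. By fold enrichment, 9 of the 16 stood above the middle of their list and 7 below, with a median percentile of 53.7 (range 5.69 to 89.8). By p-value, 9 came in the weaker part of their list, beyond its middle, and 10 met the threshold of 1e-05. Over 1 exonic block was joined by 5 of the 16 peaks and by 35.9% of all 10069.

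**Figure D4:**
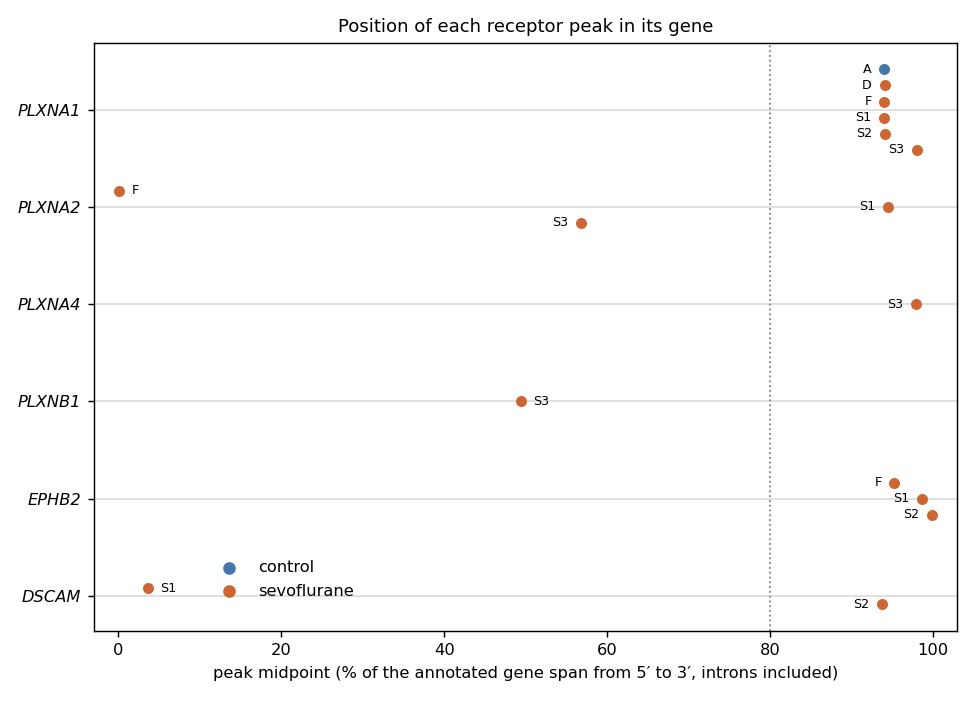
Midpoint of each of the 16 peaks as a percentage of the annotated gene span from the 5' to the 3' end, introns included, by gene, with the animal beside each point. Of the 16, 12 lie to the right of the dotted line at 80%. The points of PLXNA2 and DSCAM are spread along the gene.

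In sevoflurane animals PLXNA1 was present in both sexes, in 2 of 2 males and 3 of 3 females. PLXNA2 and EPHB2 were each in 1 male and 2 females, DSCAM in 1 and 1, and PLXNA4 and PLXNB1 in 0 and 1. The male with PLXNA2, EPHB2 and DSCAM was S1 in each case, since D had PLXNA1 alone. By sex, the number of receptor genes per animal was 0.50 in control and 2.5 in sevoflurane males (n = 2 and 2), and 0 and 3.33 in females (n = 4 and 3). Animals named by a single letter had 0.333 and 2.0, and animals with numbered names 0 and 3.67. What the naming style stands for is not stated.

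The other genes of axon guidance were set beside the receptors by lists of 111 ligands, receptors and effectors. Of these, 33 had a peak: 17 in sevoflurane animals alone, 9 in controls alone and 7 in both groups. A larger share of sevoflurane than of control animals was found for 22 of the 33 (66.7%), beside 70.1% of all genes. No control had a peak in 51.5% of them, beside 44.9% of all genes. The number with a peak was 2 to 6 in control animals and 6 to 10 in sevoflurane animals, and the groups met at 6, in C3 and in D, F and S3. Relative to all genes with a peak it came to 0.597 ± 0.215% among controls (SD, n = 6) and 0.712 ± 0.224% among sevoflurane animals (SD, n = 5), a difference smaller than the spread between animals.

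Among ligands, 4 of 20 semaphorins had a peak. The transmembrane semaphorins SEMA4F and SEMA6B were each found in 2 sevoflurane animals and 0 controls. The other 2, named here after their values were seen, were SEMA4C, in S2 alone, and SEMA7A, in the control C3 alone. Of 8 ephrins 1 had a peak, EFNB3, a transmembrane ligand of Eph receptors, in 2 sevoflurane animals and 0 controls. None of the 9 netrins, netrin-G proteins, RGM proteins and DRAXIN had a peak. Among receptors, NRP1, a neuropilin that pairs with plexin-A proteins, and PLXNB2 were each found in S2 alone. The other Eph receptors went in different directions: EPHB6, which lacks kinase activity, was in 2 controls and 1 sevoflurane animal, EPHB3 in 1 and 0, and EPHA6 in 0 and 1. NEO1, a receptor of netrins and RGM proteins, was in 0 and 1, and DSCAML1, the closest relative of DSCAM, in 1 and 0. Of 7 slits and robos 3 had a peak: the ligand SLIT2 and its receptor ROBO2 in the control C3 alone, and SLIT3, named here after its values were seen, in S1 alone. UNC5A, a netrin receptor likewise named afterwards, was in S3 alone.

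Of 41 cytoplasmic effectors 17 had a peak, 12 in a larger share of sevoflurane animals and 5 in a larger share of controls. MICAL3, of a family of actin-oxidising enzymes that act below plexins, was the most frequent, in 4 of 6 controls and 5 of 5 sevoflurane animals. DPYSL3, a collapsin response mediator protein, was in 1 and 3. The guanine nucleotide exchange factors ARHGEF12, FARP2 and TIAM1 were in 1 and 2, 2 and 1, and 0 and 2 animals. ABLIM3, an actin-binding LIM protein, was in 1 and 2, and ENAH, an actin regulator, in 1 and 1. Every listed effector present in at least 3 animals had peaks in both groups.

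**Figure D5:**
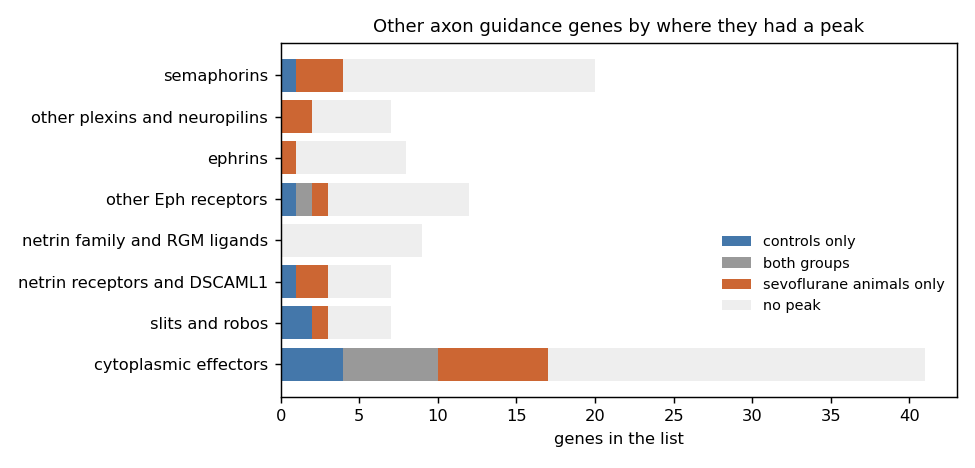
Number of genes in each list of other axon guidance genes, split by whether peaks were found in controls only, in both groups, in sevoflurane animals only or in no animal. The cytoplasmic effectors hold 6 of the 7 genes found in both groups, and the other Eph receptors the remaining 1.

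The tissue label was checked on the same lists with 42 marker genes, of which 39 have their symbol in the gene tables (not MAG, OLIG1 and HBB). Of 8 neuronal markers 4 had a peak. NEFM had one in all 11 animals and RBFOX3 in 4 controls and 3 sevoflurane animals. SYT1 was in 2 controls alone and NEFL in S2 alone, and SNAP25, STMN2, MAP2 and TUBB3 were in none. The only one of 4 excitatory markers was CAMK2A, in 2 controls and 2 sevoflurane animals. The only one of 3 inhibitory markers was SLC32A1, in 3 controls and 2 sevoflurane animals. None of 5 markers of blood, liver, heart muscle and pancreas and none of 3 endothelial markers had one. Astrocyte markers were nearly absent, with SLC1A3 in A alone and none for GFAP or AQP4. Among 5 oligodendrocyte markers 2 had a peak, CNP in 3 controls and 3 sevoflurane animals and MBP in S1 alone. Among 5 microglial markers only CX3CR1 had a peak, in the control C. Of 4 markers of oligodendrocyte precursors 2 had a peak: PDGFRA in D, F and S2, and OLIG2 in S2. They numbered 0 in every control and 0 to 2 in sevoflurane animals. Their part in the receptor counts was not tested.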

How the data were processed

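m6A peaks of 11 immunoprecipitated samples, 1 deposited list per animal, were used. The submitters' processing notes name the rheMac8 assembly, HISAT2 2.1.0, StringTie, cutadapt and Trim Galore 0.5.0. Which peak caller was run, and against which background, is not given in the sources used here. The deposited tables give for each peak a p-value, log10 scores of the p-value and false discovery rate, and a fold enrichment (a ratio), per the file headers. These are the authors' values; no p-value exceeded 0.001 and no fold enrichment was under 2.06, so weaker signals are not listed. Peak starts count from 0, so 1 was added.

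A gene counted as present in an animal when any peak of that list was called in it. Identifiers were matched to symbols without versions through the supplied gene table and the peak tables (3486 of 3671 genes; 110 of the 111 listed axon guidance symbols are in the gene table). Peaks on 1 strand that shared at least 1 exonic bp were joined into regions. Percentiles and ranks were taken within each list. List lengths were compared on the log2 scale by an exact permutation test over 462 regroupings of the animals; genes present in 2 to 9 animals were compared by Fisher's exact test with Benjamini-Hochberg adjustment. Fisher's test was tried on simulated data in which unchanged genes had the same rate in the 2 groups. The permutation test was tried on normally distributed random values, with and without a shift between groups. The check of Fisher's test does not cover groups of lists that differ in length, as these do. Python 3.11.15, pandas 2.3.3 and scipy 1.17.1 were used.

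The receptors and lists were chosen with earlier results of these data known. Named genes were the 7 receptors, listed genes with a peak in at least 3 animals and up to 2 others per list, and for receptors in at least 3 animals the 3 genes with the most similar set of animals. Alternatives were a p-value of at most 1e-05, lists of equal length, the annotated gene, strata by sex and naming style, the replicate block, 50% reciprocal overlap, no filter on the number of animals, and leaving out each animal. With read depth unknown, the number of animals limits the precision.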

Additional observations from a re-analysis of the deposited data

Results flagged for a closer look

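In control animals the number of receptor genes with a peak was 1 in A and 0 in the other 5, which set A apart from the rest of its group. The list of C3 stood apart among controls by its length, 1210 peaks. Among the sevoflurane animals the PLXNA1 fold enrichment of S1, 35.9, lay far from the other 4 values, although its percentile within the list did not stand apart by the same measure. Each was marked because its gap to the nearest other value, as a share of the range of the group, exceeded Dixon's critical value at the 95% level. For normally spread values chance passes that level in about 1 in 20 groups. Counts of 0 and 1 are not so spread, and for them no chance rate was computed. Those counts were also kept low in controls by the choice of the genes, so nothing is read from the mark on A.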

How the results depend on the processing

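Sevoflurane minus control, the number of receptor genes with a peak per animal was 2.83, and 1.63 at a p-value of at most 1e-05, 0.433 with lists of equal length and 1.67 in single-letter animals. A larger share of sevoflurane animals held for 6 receptors. It held for 4 at a p-value of at most 1e-05, for 4 in males and for 4 without S3. With lists of equal length it held for 2, and in single-letter animals for 3. For PLXNA1 the difference in share of animals turned to -0.167 with lists of equal length, which keep fewer peaks of long lists by construction. The log2 ratio of list lengths was 0.80 in males (exact permutation p = 0.333, the smallest possible), 1.04 in females (exact p = 0.0857), 1.11 in single-letter animals (exact p = 0.10, the smallest possible) and 0.73 in numbered animals (exact p = 0.20). With the number in the animal's name as a replicate block it was 0.73 (exact p = 0.25, the smallest possible for 3 pairs), and the receptors per animal differed by 3.67; no source says that these numbers pair animals. The number of genes more often found after sevoflurane by Fisher's exact test was 27, and 10 at the stricter p-value, 4 with lists of equal length and 31 to 85 without 1 animal, where group size alone shifts the test. Leaving out any 1 animal left 2.58 to 3.33 receptors of difference. Depth is unknown, so a missing peak sets no limit on methylation.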

Other observations

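Of the 3485 other genes with a symbol, none was found in exactly the animals of PLXNA1. The nearest sets, at a Jaccard index of 0.857, included YEATS2, a histone acylation reader, DMWD and SLC15A3, each in 2 controls and 5 sevoflurane animals. KIF16B, an endosomal kinesin, had exactly the animals of PLXNA2, and the corepressor NCOR1 (1 control and 3 sevoflurane animals) and PHF23 (0 and 4) followed at 0.75. For EPHB2, 5 genes had exactly its animals, among them CCDC6, ABHD13 and MEPCE, which binds the RNA 7SK. These sets are over 11 animals that also differ in list length. Genes present in exactly 3 animals, none of them a control, numbered 71 in all, PLXNA2 and EPHB2 among them. No link between genes is read from a shared set of animals.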
